A study of Mus musculus with 12 samples.

Results

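The lysosome genes described here are 40 genes for lysosomal membrane proteins, hydrolases, proton pump subunits and the transcription factors that drive them. They were chosen by name, and all 40 were found among the 55450 genes of the count table. The libraries hold total RNA of 2 tissues, brain and liver, from males 7 to 9 weeks old, with 3 libraries in each of 4 groups. The wild-type mice carried the small vault RNA gene Vaultrc5 intact (Vaultrc5+/+ in the protocol, flx in the sample titles), and the knockout mice were Vaultrc5-/-. The labels state no treatment, strain background or Cre driver, and do not say whether a brain and a liver library with the same number came from the same animal. Vaultrc5 itself had 33, 39 and 48 counts in wild-type liver, 4, 1 and 4 in wild-type brain, and 0 in all 6 knockout libraries.

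The lysosome is the acidic compartment in which cells break down proteins, glycans, lipids and nucleic acids that arrive by endocytosis or autophagy. A proton-pumping ATPase acidifies it, soluble hydrolases do the digestion, and heavily glycosylated membrane proteins line its wall and carry products out. Many lysosomal genes share an E-box in their promoter, the CLEAR element, which is bound by the MiT transcription factors TFEB, TFE3 and MITF when these enter the nucleus. Binding is controlled largely by where the factors are in the cell, which RNA levels do not show. In brain, inherited loss of lysosomal hydrolases causes storage disorders of neurons and myelin, and in liver the hepatocytes and the resident macrophages (Kupffer cells) are both rich in lysosomes.

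The CLEAR element was looked for in the members' promoters, because it is the feature that these genes are known to share. RefSeq promoter windows (GRCm38.p6, 250 bases before to 50 bases after an annotated start site) were found for 35 of the 40 members, and Ctsh, Asah1, Npc1, Atp6v1h and Ctsb had none in the table. The palindrome CACGTG occurred in windows of 12 of the 35 members (34.3%), compared with 10.9% of the 12845 tested genes that had a window. Its extension TCACGTGA, also a palindrome and always containing the shorter motif, occurred in 7 members (20.0%) and in 1.88% of the tested genes. Extended on either side alone (TCACGTG, read on both strands), the motif was in 10 members (28.6%) and 6.33% of the tested genes. Over all 32851 windows of the table the shares were 7.15% for the short motif, 3.77% for the extension on either side and 0.974% for the full palindrome. The upstream 250 bases of 4 members are printed 5′ to 3′ on the gene's strand, with CACGTG in capitals, because they show how differently the motif is arranged. Lamp1 holds 4 copies in chr8:13158911-13159160 (plus strand), Mcoln1 holds 2 in chr8:3500269-3500518 (plus strand), Ctsd holds 2 in chr7:142387828-142388077 (minus strand), and Atp6v1a holds 1 in chr16:44139260-44139509 (minus strand).
Lamp1: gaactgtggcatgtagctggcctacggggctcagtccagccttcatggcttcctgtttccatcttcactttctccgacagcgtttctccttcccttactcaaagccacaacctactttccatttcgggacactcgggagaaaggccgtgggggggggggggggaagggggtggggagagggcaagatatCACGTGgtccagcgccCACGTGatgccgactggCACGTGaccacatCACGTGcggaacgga
Mcoln1: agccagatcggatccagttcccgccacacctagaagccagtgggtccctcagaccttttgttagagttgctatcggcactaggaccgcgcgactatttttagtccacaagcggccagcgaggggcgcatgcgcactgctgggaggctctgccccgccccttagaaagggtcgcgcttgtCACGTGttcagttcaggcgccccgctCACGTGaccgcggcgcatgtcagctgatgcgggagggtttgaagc
Ctsd: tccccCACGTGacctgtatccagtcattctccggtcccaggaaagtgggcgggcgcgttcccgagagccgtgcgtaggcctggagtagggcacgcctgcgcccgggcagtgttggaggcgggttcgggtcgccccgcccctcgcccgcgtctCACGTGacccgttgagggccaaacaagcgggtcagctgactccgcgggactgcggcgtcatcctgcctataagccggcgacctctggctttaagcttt
Atp6v1a: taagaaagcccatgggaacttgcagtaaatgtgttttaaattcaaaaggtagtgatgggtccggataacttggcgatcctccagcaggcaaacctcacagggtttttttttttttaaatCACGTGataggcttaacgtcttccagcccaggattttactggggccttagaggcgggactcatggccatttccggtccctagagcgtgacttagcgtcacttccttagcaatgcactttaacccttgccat

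For the other 4 members with the full TCACGTGA, a 30-base stretch around a copy is given, again with CACGTG in capitals, to show the palindrome in its surroundings. These are in the windows chr2:164833523-164833822 (Ctsa, plus strand), chr7:126583187-126583486 (Cln3, minus strand), chrX:134600956-134601255 (Gla, minus strand) and chr8:105566015-105566314 (Atp6v0d1, minus strand).
Ctsa: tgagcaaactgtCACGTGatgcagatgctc
Cln3: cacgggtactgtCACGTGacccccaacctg
Gla: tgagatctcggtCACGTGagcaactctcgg
Atp6v0d1: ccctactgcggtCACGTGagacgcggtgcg

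The copies lay at positions -245 to 6 relative to the start site. A match describes the letters only, and no binding was measured here.

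**Figure D1:**
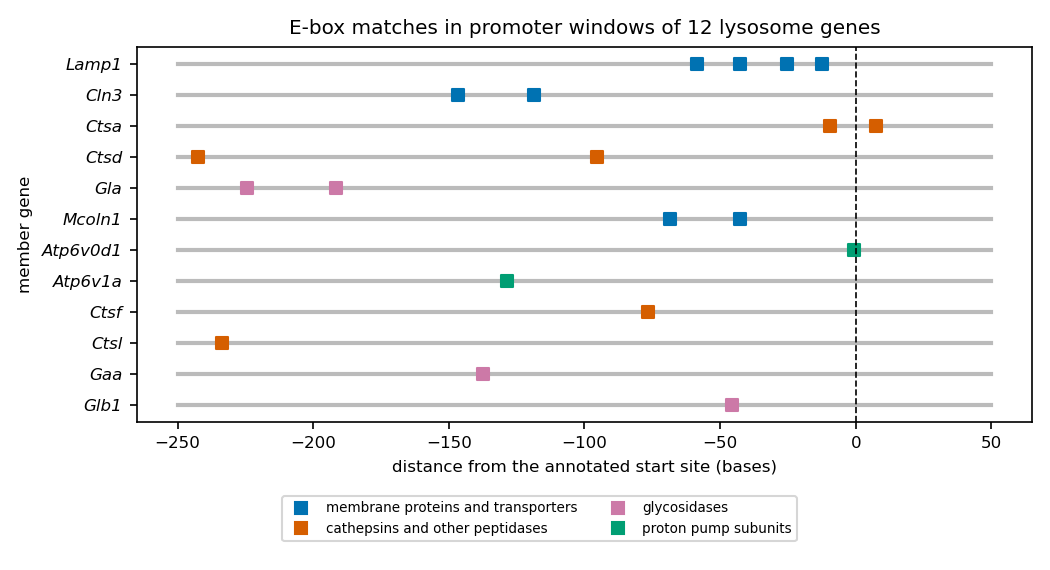
Position of each E-box match (square) relative to the annotated start site (0, dashed line; axis in bases) in the 300-base promoter windows (grey lines) of the 12 lysosome genes that hold one, coloured by role. Lamp1 has 4 matches, 5 genes have 2 each and 6 genes have 1, and the matches of Lamp1 lie within 61 bases of the start.

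Levels are given as CPM (a count scaled to the library's size, here with TMM over all 12 libraries), and levels of different genes are compared only as CPM per kilobase of exon. Psap, the precursor of the saposins that present sphingolipids to hydrolases, stood far above the other members in wild-type brain at 231 ± 13.4 CPM per kilobase (SD, n = 3). It was followed by Ctsd (cathepsin D, an aspartic protease) at 52.2 ± 6.83, Lamp1 (the main glycoprotein of the lysosomal wall) at 51.9 ± 7.90, Atp6ap1 at 49.8 ± 3.82 and Atp6v0a1 at 46.1 ± 5.91, which do not differ beyond their spread. The lowest member in brain was Ctsc at 0.827 ± 0.0231 CPM per kilobase. In wild-type liver the order was headed by Lamp1 at 210 ± 5.90 CPM per kilobase, then Psap at 152 ± 4.02, Ctsd at 109 ± 3.13, Ctsz at 92.8 ± 10.9 and Ctsb at 74.7 ± 3.45. The ranges of Ctsd and Ctsz come close to each other, and the lowest member in liver was Galc at 0.665 ± 0.0643 CPM per kilobase. The order depends on the length used. With the longest protein-coding transcript in place of all exons, 4 of the top 5 in brain and 3 of the top 5 in wild-type liver were the same genes.

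The share that the 40 genes took together depends on the measure. Of all counts it was 0.404 ± 0.0286% in wild-type brain, 0.382 ± 0.0137% in knockout brain, 0.380 ± 0.00322% in wild-type liver and 0.384 ± 0.0122% in knockout liver (SD, n = 3 each). Of the CPM per kilobase of protein-coding genes it was 0.589 ± 0.0373% and 0.559 ± 0.0214% in brain against 0.280 ± 0.0142% and 0.270 ± 0.0173% in liver, wild type first. The make-up differed too. The 6 proton pump members took 0.130 ± 0.0128% of counts in wild-type brain and 0.0242 ± 0.000252% in wild-type liver, and the 8 membrane proteins took 0.0593 ± 0.00917% and 0.138 ± 0.00292%. Per kilobase the proton pump members held 0.167 ± 0.0142% and 0.0199 ± 0.000754%, and the membrane proteins 0.0694 ± 0.0114% and 0.0821 ± 0.0031% with overlapping ranges. All 40 members passed the low-count filter in every comparison.

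**Figure D2:**
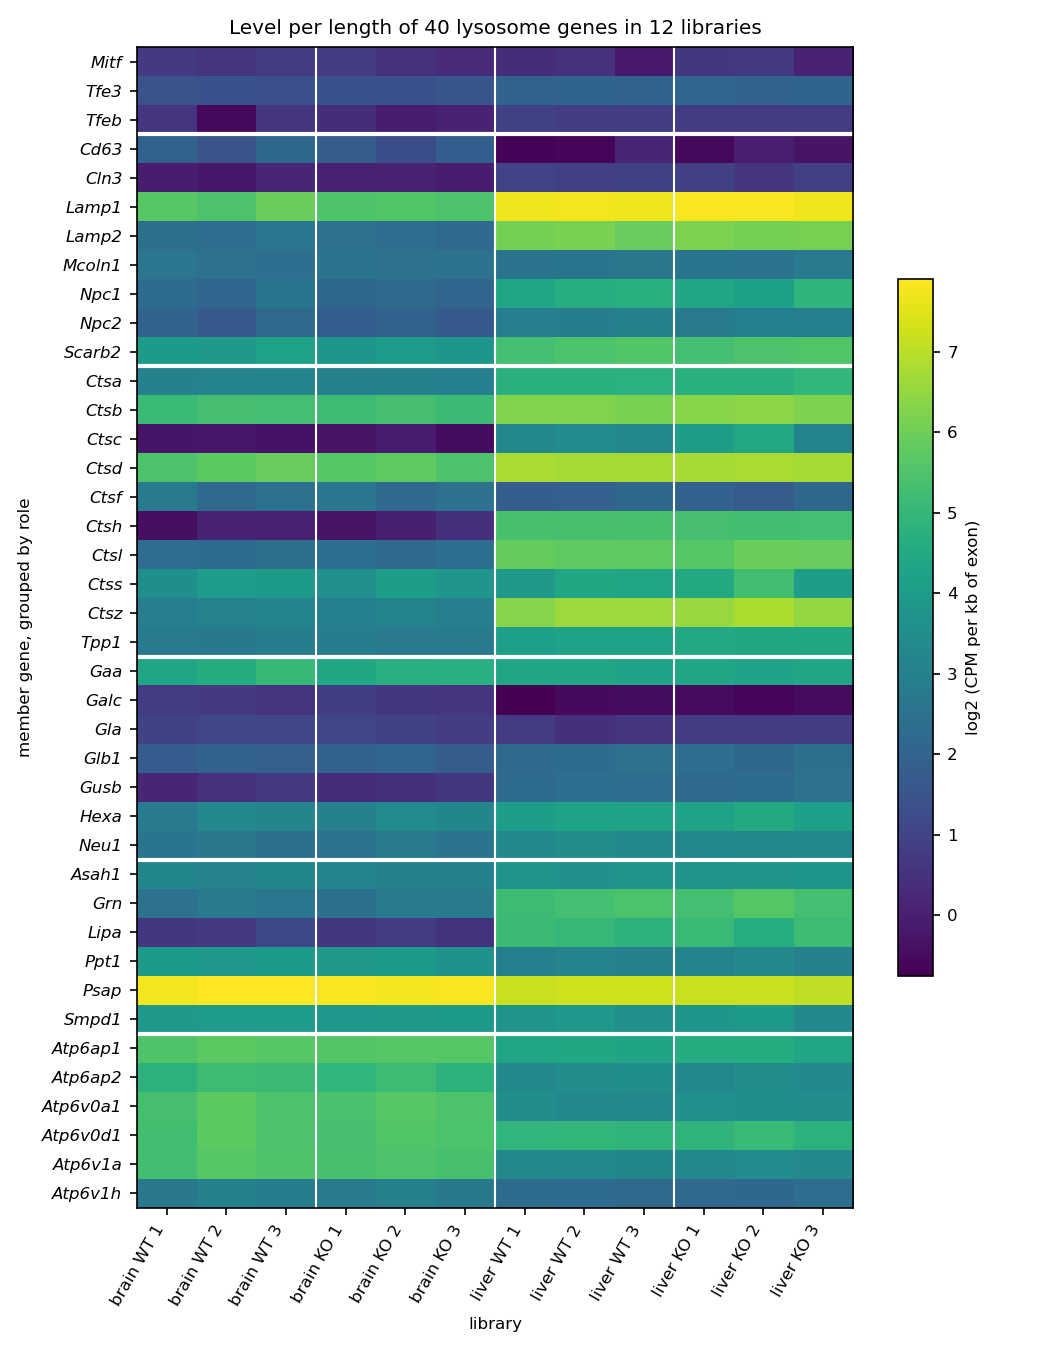
Level of each of the 40 lysosome genes (rows, grouped by role) in each of the 12 libraries (columns), as log2 of CPM per kilobase of exon (colour scale). Psap and Lamp1 are brightest, the proton pump block at the bottom is brighter in the 6 brain libraries, and most cathepsins are brighter in the 6 liver libraries.

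Brain and liver were compared in wild-type animals and, in libraries that this first comparison does not use, in knockout animals. With the edgeR quasi-likelihood test, 13 members were higher in wild-type brain and 22 in wild-type liver (Benjamini-Hochberg adjusted p under 0.05). Most genes differ between these tissues: 43.9% of the 18850 genes tested were called higher in brain and 34.7% higher in liver, so that the members leaned to liver and all genes to brain. A difference of at least 2-fold was called for 6 members in brain (all genes 36.4%) and for 15 in liver (all genes 25.5%). In the knockout animals 11 members were called higher in brain (43.5% of 18785 genes) and 24 in liver (35.2%), with 6 (35.7%) and 17 (25.6%) at 2-fold or more. The members' median log2 fold change, brain over liver, was -0.59 in wild type and -0.68 in knockout, where that of all tested genes was 0.21 in both.

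Across tissues the scaling sets the zero point. With raw library totals in place of TMM the median of all tested genes moved from 0.21 to 1.05 in wild type and to 1.07 in knockout, and 20 members were called higher in brain (all genes 61.7%) and 13 in liver (21.2%) in wild type, against 18 (61.8%) and 14 (20.7%) in knockout. Under both scalings the members' share was below that of all genes in brain and above it in liver. Of the 40 members, 26 in wild type and 25 in knockout kept their direction and their side of the threshold under both scalings. Members whose direction turned are named where they are described.

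Called in both genotypes were 11 members higher in brain and 22 higher in liver, of which 6 and 15 differed at least 2-fold in both. Of the 18380 genes tested in both genotypes, 41.4% were called higher in brain in both and 33.3% higher in liver, with 34.2% and 24.1% at 2-fold or more. The roles differed in this split, most plainly the proton pump. All 6 proton pump members were higher in brain in both genotypes and under both scalings. Of the 23 hydrolases and their cofactors, 15 were higher in liver and 4 in brain in both genotypes, but 9 in liver and 8 in brain by library totals. Of the 8 membrane proteins, 6 were higher in liver and 1 in brain, and by library totals 4 and 2. The 10 peptidases kept a lean to liver, with 8 against 1, and 6 against 1 by library totals.

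**Figure D3:**
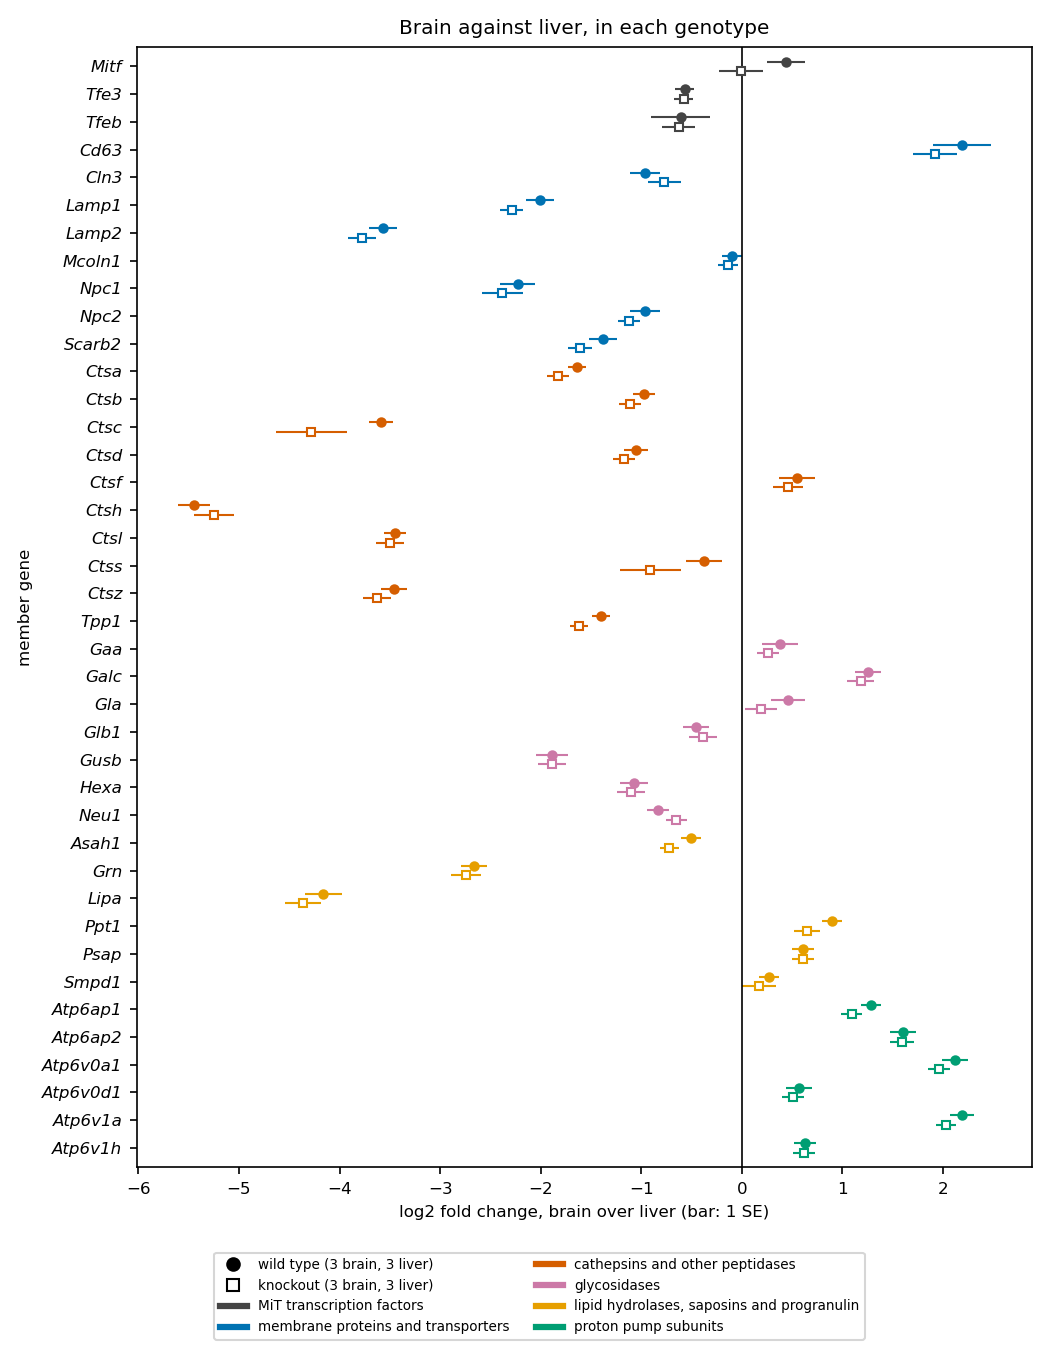
Log2 fold change of brain over liver (horizontal axis) for each lysosome gene, in wild type (filled circles) and knockout (open squares), with bars of 1 SE and 3 libraries per tissue and genotype; colours give the role. All 6 proton pump genes lie right of 0, while Ctsh, Lipa, Ctsc, Lamp2, Ctsz and Ctsl lie furthest left.

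With TMM the levels of the MiT transcription factors differed by less than 2-fold between the tissues, while the share of Mitf among them was larger in brain. Tfe3 was the most abundant of them per length in every group, at 49.0 ± 5.69% of the summed CPM per kilobase of Tfeb, Tfe3, Mitf and their relative Tfec in wild-type brain and 52.9 ± 2.19% in wild-type liver. Mitf made up 28.1, 30.3 and 29.7% of that sum in wild-type brain and 16.6, 17.6 and 13.1% in wild-type liver, without overlap, and 27.1 ± 3.07% and 18.4 ± 3.52% in the knockout tissues. These shares use the length of all exons, 9261 bases for Tfe3, 5669 for Tfeb and 6196 for Mitf. The longest protein-coding transcripts have 3390, 2342 and 4881 bases, and shares by these were not computed. Tfe3 stood at 25.4, 25.2 and 24.0 CPM in wild-type brain and 36.4, 38.4 and 36.1 in wild-type liver, so the groups did not overlap, and it was called higher in liver in both genotypes. Tfeb, the factor after which the pathway is usually described, had 8.33, 3.86 and 8.25 CPM in wild-type brain and 11.1, 10.1 and 10.1 in liver, a log2 fold change of -0.61 ± 0.29 (SE; edgeR adjusted p = 0.0853). Replicate 2 of wild-type brain was the low library, and Tfeb was called without brain replicate 1 (-0.80, adjusted p = 0.049) or 3 (-0.83, adjusted p = 0.0491). In knockout the same contrast of Tfeb was -0.63 ± 0.16 (edgeR adjusted p = 0.00871). Mitf, known from melanocytes and osteoclasts, had 10.0 ± 0.748 CPM in wild-type brain and 7.43 ± 1.52 in liver, and its log2 fold change was 0.44 ± 0.19 in wild type (edgeR adjusted p = 0.0633) and -0.01 ± 0.22 in knockout (0.981). Scaled by library totals, Tfeb and Tfe3 turned in both genotypes, to 0.24 and 0.27 in wild type and to 0.24 and 0.29 in knockout, and Mitf turned in knockout, to 0.87, and was called higher in brain in both genotypes (1.28 in wild type). Tfec, a macrophage-associated member of the family from the wider list, reached at most 3 counts in a brain library, had 49 to 67 in each liver library, and made up 7.03 ± 0.517% of the family in wild-type liver.

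Among the membrane proteins, Lamp2 showed the widest gap. Lamp2, which also serves chaperone-mediated autophagy, had 51.6, 48.1 and 59.1 CPM in wild-type brain and 654, 675 and 566 in wild-type liver, 11.9-fold higher in liver (log2 fold change -3.57 ± 0.14, edgeR adjusted p = 3.22e-07). Its sister Lamp1 had 134, 120 and 162 CPM in brain and 564, 576 and 545 in liver, a 4.03-fold difference. Per kilobase of exon Lamp1 was the higher of the pair in both wild-type tissues, at 51.9 against 5.54 CPM in brain and 210 against 66.1 in liver.

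The cholesterol exporter Npc1 stood at 55.8, 47.4 and 69.7 CPM in wild-type brain and 234, 280 and 301 in liver (log2 fold change -2.23 ± 0.17 in wild type and -2.38 ± 0.20 in knockout). Its soluble partner Npc2, which hands cholesterol to it, was also higher in liver in both genotypes, at 42.4 ± 1.23 CPM against 21.8 ± 4.19 in wild-type brain, but missed the threshold by library totals in both (-0.11 and -0.25). Scarb2, the receptor that carries glucocerebrosidase to the lysosome, had 97.3, 94.3 and 122 CPM in brain and 249, 276 and 293 in liver (-1.38 ± 0.14 and -1.61 ± 0.12). Cln3, the gene of juvenile neuronal ceroid lipofuscinosis, was low everywhere, at 5.65 ± 0.748 CPM in wild-type brain and 11.0 ± 0.351 in liver; it was called higher in liver in both genotypes, but by library totals its log2 fold change was -0.12 in wild type and 0.09 in knockout. Mcoln1, the lysosomal calcium channel TRPML1, was level by this scaling, at 43.4 ± 3.52 and 46.6 ± 1.89 CPM (-0.10 ± 0.10, edgeR adjusted p = 0.405), and turned to 0.74 by library totals.

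Cd63, a tetraspanin of late endosomes, was the membrane gene that ran the other way, with 14.0, 10.2 and 16.1 CPM in wild-type brain and 2.31, 2.39 and 4.14 in liver (log2 fold change 2.19 ± 0.29, edgeR adjusted p = 0.000212; 1.92 ± 0.22 in knockout). Its counts were not whole numbers in any library, and in all 12 they became whole (within 0.02) when those of the pseudogene Cd63-ps were added. The sum was 13.8 ± 2.99 CPM in wild-type brain and 5.32 ± 1.43 in wild-type liver, 2.59-fold higher in brain in place of 4.56-fold, and 2.66-fold in knockout. How the reads were divided between the copies therefore sets the size of this difference.

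Among the peptidases was the member with the largest tissue difference in both genotypes. Ctsh (cathepsin H, an aminopeptidase; chr9:90054152-90076089, GRCm38) had 3.41, 4.84 and 4.62 CPM in wild-type brain and 188, 189 and 189 in wild-type liver, 43.7-fold higher in liver (log2 fold change -5.45 ± 0.16, edgeR adjusted p = 9.54e-08) and 38.1-fold in knockout. Ctsc (cathepsin C, which activates the serine proteases of immune cells) had 4.83, 4.92 and 4.66 CPM in brain and 55.6, 64.2 and 55.1 in liver (-3.59 ± 0.12). Ctsz (a carboxypeptidase) had 11.2, 12.1 and 12.9 CPM in brain and 116, 142 and 144 in liver. Ctsl (cathepsin L, a cysteine protease) had 32.8, 31.3 and 35.2 CPM in brain and 377, 360 and 351 in liver. These 4 genes were 10.9-fold to 43.7-fold higher in wild-type liver, and every liver library was above every brain library.

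Smaller liver excesses were called for Ctsa (protective protein for galactosidase and neuraminidase, 3.12-fold), Tpp1 (the tripeptidyl peptidase lost in late infantile ceroid lipofuscinosis, 2.65-fold) and Ctsd (2.07-fold) in wild type, and again in knockout at 3.56-fold, 3.08-fold and 2.25-fold. For Ctsd the difference fell to -0.21 on the log2 scale by library totals in wild type (edgeR adjusted p = 0.147). Counts of Ctsd were not whole in any library, and its exons overlap those of Gm49369 on the same strand. Adding the counts of Gm49369 gave whole numbers (within 0.02) in only 2 of 12 libraries, so how the reads of Ctsd were divided is uncertain. The log2 ratio of the summed CPM, brain over liver, was -1.01 in wild type and -1.12 in knockout. Ctsb, an abundant cysteine protease, was called higher in liver in both genotypes, at 231 ± 18.6 CPM in wild-type brain and 452 ± 20.9 in liver, and missed the threshold by library totals in both. Ctss, a protease of microglia and macrophages, had 16.0, 22.1 and 21.2 CPM in wild-type brain and 20.8, 29.1 and 27.5 in liver, which overlap (-0.38 ± 0.18, edgeR adjusted p = 0.081); it was called higher in liver in knockout (-0.91 ± 0.30, adjusted p = 0.025) and by library totals was at 0.46 in wild type, called higher in brain, and at -0.03 in knockout (edgeR adjusted p = 0.917). The knockout call was also lost without a low-count filter. Single libraries decided the calls of Ctss: in wild type it was called without brain replicate 2 (edgeR adjusted p = 0.0438) or liver replicate 1 (0.0294), and in knockout it was not called without brain replicate 1 (0.0905) or 3 (0.0746). Ctsf was the only peptidase called higher in brain in both genotypes, at 29.2 ± 6.29 CPM in wild-type brain and 20.1 ± 2.34 in wild-type liver. Its call was lost in wild type without brain replicate 1 or liver replicate 1 or 2 (edgeR adjusted p = 0.0575 to 0.0805) and in knockout without replicate 1 or 3 of brain or 1 or 2 of liver (0.0562 to 0.0839).

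The make-up of the cathepsin pool therefore differed between the tissues whatever the scaling, since shares within a library do not depend on it. The size of a share does depend on the length used. Ctsh, for example, has 4499 bases of exon but 1617 in its longest protein-coding transcript, and shares by transcript length were not computed. Over the 9 cathepsin genes and per kilobase, Ctsd and Ctsb held 38.7 ± 1.79% and 28.3 ± 0.954% in wild-type brain and 25.0 ± 1.20% and 17.2 ± 0.975% in wild-type liver. Ctsz held 6.23 ± 0.169% in brain and 21.4 ± 2.18% in liver, Ctsl 3.81 ± 0.339% and 12.9 ± 0.684%, Ctsh 0.705 ± 0.0781% and 9.66 ± 0.169%, and Ctss 10.8 ± 1.03% and 4.37 ± 0.667%. None of these 6 genes had overlapping shares in the tissues.

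The glycosidases were divided. Gusb (beta-glucuronidase) had 5.09, 6.28 and 7.35 CPM in wild-type brain and 22.0, 24.2 and 23.4 in liver, with a log2 fold change of -1.89 ± 0.16 in wild type and -1.89 ± 0.14 in knockout. Hexa, the alpha chain of the hexosaminidase lost in Tay-Sachs disease, was 2.11-fold higher in wild-type liver and 2.15-fold in knockout, but not past the threshold by library totals in either. Galc, which digests the myelin lipid galactosylceramide and is lost in Krabbe disease, went the other way, with 25.0, 23.9 and 21.6 CPM in wild-type brain and 8.84, 10.2 and 10.7 in liver (1.25 ± 0.13, edgeR adjusted p = 5.36e-05; 1.18 ± 0.13 in knockout).

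Gaa (acid alpha-glucosidase, which digests glycogen) ranged from 95.9 to 159 CPM in wild-type brain and from 90.9 to 99.7 in liver and was not called in either genotype (0.38 ± 0.18 and 0.26 ± 0.11; edgeR adjusted p = 0.0891 and 0.0573). It was called higher in brain in both by library totals (1.22 and 1.13), and also without brain replicate 1 (0.52 in wild type and 0.37 in knockout). Gla (the alpha-galactosidase of Fabry disease) was called higher in brain in wild type alone (0.46 ± 0.17, edgeR adjusted p = 0.0405; in knockout 0.19 ± 0.16, adjusted p = 0.29). The wild-type call of Gla was lost without replicate 2 or 3 of brain or of liver (adjusted p = 0.0998 to 0.152) and with the replicate block (0.0752), and by library totals Gla was called in knockout too (1.06). Neu1, a sialidase, was called higher in liver in both genotypes, and so was Glb1, the beta-galactosidase. Both turned by library totals, to 0.01 and 0.37 in wild type and to 0.22 and 0.47 in knockout. The knockout call of Glb1 was lost without replicate 1 or 3 of either tissue (edgeR adjusted p = 0.0653 to 0.104). Counts of Glb1 were not whole in 7 libraries and became whole with those of the overlapping gene Tmppe. The log2 ratio of the summed CPM, brain over liver, was -0.27 in wild type and -0.20 in knockout, where Glb1 alone gave -0.46 and -0.39.

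Of the lipid hydrolases and their cofactors, Lipa stood out. Lipa, the acid lipase that frees cholesterol and fatty acids from lipoproteins (chr19:34492318-34527474, GRCm38), had 10.4, 11.2 and 14.7 CPM in wild-type brain and 240, 217 and 195 in liver, 17.8-fold higher in liver (-4.16 ± 0.18, edgeR adjusted p = 4.21e-07), and 20.5-fold in knockout. Grn, the gene of progranulin, a regulator of lysosomal function, had 19.7, 23.8 and 21.7 CPM in brain and 126, 137 and 152 in liver (-2.66 ± 0.13; -2.74 ± 0.15 in knockout). Asah1, acid ceramidase, was called higher in liver in both genotypes at 43.9 ± 1.71 against 30.8 ± 1.62 CPM in wild type and turned by library totals, to 0.33 and 0.15. Psap and Ppt1, the palmitoyl thioesterase of infantile ceroid lipofuscinosis, were called higher in brain in both genotypes under both scalings, with 590, 655 and 653 CPM of Psap in wild-type brain and 405, 422 and 426 in liver. Smpd1, acid sphingomyelinase, was called higher in brain in wild type alone (0.27 ± 0.10, edgeR adjusted p = 0.0427; in knockout 0.17 ± 0.17, adjusted p = 0.388). The wild-type call of Smpd1 was lost with the replicate block (0.0668), the DESeq2 Wald test (0.0563) and on leaving out any library but liver replicate 2 (0.0591 to 0.187), and by library totals Smpd1 was called in knockout too (1.04).

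The 12 members called in both genotypes with less than a 2-fold difference in at least 1 of them had log2 fold changes of 0.55 to 0.90 for the 5 higher in brain and of -0.97 to -0.46 for the 7 higher in liver in wild type.

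The proton pump genes were all higher in brain. Atp6v1a, the catalytic subunit that hydrolyses ATP (chr16:44085402-44139705, GRCm38), had 236, 298 and 274 CPM in wild-type brain and 59.6, 62.0 and 56.2 in liver, 4.56-fold higher in brain (2.19 ± 0.12, edgeR adjusted p = 1.79e-06). Atp6v0a1, an isoform of the membrane-embedded a subunit, had 267, 344 and 295 CPM in brain and 75.4, 67.5 and 66.2 in liver, a 4.35-fold difference. The accessory subunits Atp6ap2 and Atp6ap1 were 3.03-fold and 2.44-fold higher. Atp6v0d1 (the d subunit of the stalk) and Atp6v1h (a regulatory subunit) were called higher in brain with smaller differences. The log2 fold changes of the 6 ran from 0.57 to 2.19 in wild type and from 0.51 to 2.03 in knockout, and no brain library overlapped a liver library for Atp6v1a, whose promoter is printed above, or for Atp6v0a1.

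The other subunits of the pump, from a list of 19 genes outside the 40, extended this picture. With the members they gave 20 genes tested in both genotypes, of which, with TMM, 14 were called higher in brain in both and 3 in liver. The subunits that differed most were isoforms. Counts of Atp6v0e2 ran from 2275 to 3350 in brain and from 7 to 21 in liver (log2 fold change 7.35 ± 0.28 in wild type and 7.23 ± 0.25 in knockout). Those of Atp6v1g2 ran from 3813 to 6317 and from 20 to 46 (6.90 ± 0.30 and 6.44 ± 0.15). Atp6v1b2, the widely expressed B subunit, was also higher in brain (2.58 ± 0.13). Higher in liver were Tcirg1, the a3 isoform known from osteoclasts (-2.66 ± 0.12), Atp6v1g1 (-0.32 ± 0.10) and Atp6v0d2, which had at most 3 counts in brain and 13 to 76 in liver. By library totals the median of all tested genes moved from 0.21 to 1.05 in wild type, so the direction of Atp6v1g1 may depend on the scaling.

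Shares of each isoform family show the exchange without any scaling between libraries. These shares too rest on the length of all exons of each gene. Per kilobase, Atp6v0a1 made up 85.8 ± 1.50% of the a subunits in wild-type brain and 42.5 ± 2.65% in wild-type liver, where Tcirg1 reached 31.3 ± 0.533% (2.31 ± 0.266% in brain) and Atp6v0a2 25.9 ± 2.40% (11.8 ± 1.27%). Atp6v0e2 was 93.2 ± 1.90% of the e subunits in brain and 6.30 ± 2.47% in liver, and Atp6v0e took the rest. Atp6v1g2 was 78.6 ± 3.11% of the G subunits in brain and 2.45 ± 0.972% in liver. The d, B, C and E families had a dominant gene in both tissues, Atp6v0d1, Atp6v1b2, Atp6v1c1 and Atp6v1e1, each with a mean of 96.4% of its family or more in every group. The knockout libraries gave the same order of isoforms in each of these families and in each tissue.

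**Figure D4:**
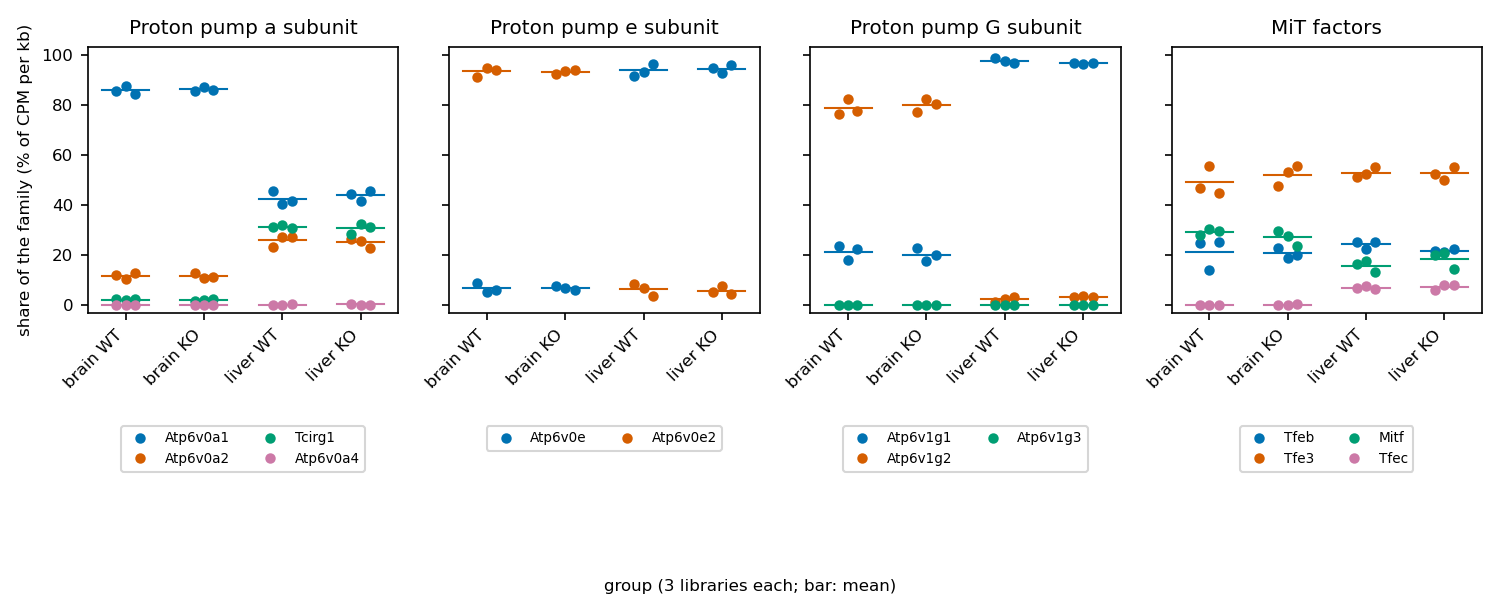
Share of each isoform in its family (vertical axis, % of summed CPM per kilobase) for the a, e and G subunits of the proton pump and for the MiT factors, with 1 point per library and a bar at the mean of each group of 3. Atp6v0e2 and Atp6v1g2 hold 93.2% and 78.6% of their families in wild-type brain but 6.30% and 2.45% in wild-type liver, whereas Tfe3 leads the MiT factors in both tissues.

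In the wider list of 112 other lysosome genes, 105 were tested in both genotypes, and 33 were called higher in brain and 51 in liver in both, beside the 41.4% and 33.3% of all genes given above; the same shares apply to the groups of this list, of which those for sorting and for nutrient sensing lie near them. Calls and fold changes of this list are given with TMM only, and small differences may turn by library totals, as they did for members. Of the 19 glycan and sulfate hydrolases 14 were higher in liver and 3 in brain. Hyal1 (a hyaluronidase, -4.27 ± 0.27 in wild type), Hyal2 (-3.24 ± 0.12) and Naglu (-2.68 ± 0.16) differed most towards liver. Among those higher in brain were Ids, the iduronate sulfatase of Hunter syndrome (3.85 ± 0.18), and Arsb, a sulfatase of dermatan sulfate (0.55 ± 0.14).

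Of the other peptidases and lipid or phosphate hydrolases, 7 of 13 tested were higher in liver and 2 in brain. Pld3 (a lysosomal exonuclease abundant in neurons) was higher in brain (3.39 ± 0.26), and so was Naaa (1.59 ± 0.20). Acp5, the tartrate-resistant phosphatase of macrophages and osteoclasts, had 1017 to 1491 counts in each liver library and at most 8 in a brain library. Among the other membrane proteins 12 of 23 tested were higher in liver, led by Cd164 (-3.34 ± 0.15), and 7 in brain, led by Lamp5, whose counts were 893 to 1866 in brain but at most 4 in liver, Abcb9 (a peptide transporter, 3.42 ± 0.16) and Abca2 (1.45 ± 0.19). Slc11a1, the metal transporter of phagocytes, was higher in liver (-2.65 ± 0.30).

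With TMM, genes that sort enzymes to the lysosome were evenly divided, 7 of 18 called each way. Sort1, the sorting receptor sortilin, was higher in brain (2.24 ± 0.23) and M6pr, the small mannose 6-phosphate receptor, in liver (-1.29 ± 0.11). Ap3b2, the neuronal AP-3 subunit, had 0 counts in all 6 liver libraries and was at least 525-fold higher in wild-type brain (83.3 CPM against a floor of 3 counts per library), while its ubiquitous counterpart Ap3b1 was higher in liver (-1.24 ± 0.12). Of the 18 genes of nutrient sensing and MiT control, 6 were higher in brain and 8 in liver. Of the 4 Rag GTPase genes, whose products recruit mTORC1 to the lysosome, Rragd was higher in brain (4.71 ± 0.19), and Rragb, with 485 to 769 counts in each brain library, had at most 3 in a liver library. Rraga was slightly higher in brain (0.40 ± 0.11) and Rragc was not called in either genotype (-0.13 ± 0.10 in wild type).

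In bulk tissue, a difference in cell make-up and a difference in RNA per cell cannot be told apart. Kupffer cell markers summed to 128 to 176 CPM in wild-type liver and at most 0.0855 CPM in brain. The 10 markers of macrophages in any tissue summed to 223 to 282 CPM in wild-type liver and 68.5 to 108 in wild-type brain, and the 8 microglial markers to 42.4 to 61.6 and 86.5 to 132. The 6 neuronal markers summed to 2841 to 3743 CPM in wild-type brain and 27.5 to 32.9 in liver. The part of any of these cells in the tissue differences was not tested. Hepatocyte markers (Alb, Apoa1, Ttr and others) summed to 76075 to 95993 CPM in wild-type liver, and in brain to 0.451 to 304 CPM in wild type and 2.25 to 438 in knockout, with only 1 of the 6 genes above 3 counts in all brain libraries.

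Read against the promoters shown above, members with and without the E-box differed in both directions between tissues. Of the 12 with CACGTG, 4 were called higher in brain and 6 in liver in wild type, with a median log2 fold change of -0.28, and of the 23 with a window and no match 8 and 12 were called, with a median of -0.61. Lamp1 with its 4 copies was higher in liver and Atp6v1a with its full TCACGTGA in brain.

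The series was made to compare mice with and without Vaultrc5, and the members were next compared between genotypes in each tissue. In brain 0 of the 40 were called by the edgeR quasi-likelihood test (adjusted p = 1 for each member shown) and 0% of all 18075 genes tested. At an unadjusted p under 0.05 there were 0 members, where all genes gave 0.675%, and with the DESeq2 Wald test also 0 (all genes 0.432%). The members' log2 fold changes, knockout over wild type, ran from -0.22 to 0.14 with a median of -0.06 (all genes -0.01), and 30 of 40 were below 0 (all genes 51.7%). No member had knockout libraries wholly above or wholly below the wild type, where 2.09% of all genes were wholly above and 2.14% wholly below.

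The members with the smallest p in brain were Lamp1, Scarb2 and Asah1. Lamp1 had 134, 120 and 162 CPM in wild type and 122, 124 and 119 in knockout (-0.21 ± 0.13). Scarb2 had 97.3, 94.3 and 122 in wild type and 87.2, 99.3 and 87.4 in knockout (-0.21 ± 0.13), and Asah1 31.6, 28.9 and 31.8 against 30.1, 27.4 and 27.7 (-0.13 ± 0.09). For Lamp1 and Scarb2 the high value was wild-type replicate 3, and without that library the log2 fold changes of Lamp1 and Scarb2 were -0.07 and -0.07. Tfeb, Tfe3 and Mitf were at -0.13 ± 0.31, 0.03 ± 0.09 and -0.17 ± 0.15. Leaving out single libraries moved Tfeb between -0.41 and 0.04 and Tfe3 between -0.01 and 0.06.

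Wild-type brain replicate 3 was above the brain mean for 31 of the 40 members, against 46.8% of all tested genes, and knockout replicate 3 for 10 of 40, against 50.9%. The former held the highest Gaa (159 CPM), Npc1 (69.7), Scarb2 and Lamp1 of the 6 brain libraries. Its 6 oligodendrocyte markers summed to 5372 CPM, where the other wild-type libraries had 1584 and 2593 and the knockout libraries 1777 to 2921. The part of these cells in the members' values was not tested. Without that library 24 of the 40 members were below 0 and the median was -0.02.

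In liver, again 0 members were called (edgeR adjusted p = 0.992 for each member shown), and 0% of the 15329 genes tested. A fit with the replicate block called 2 genes in all and 0 members. Tpp1 was the 1 member at an unadjusted p under 0.05, where all genes gave 3.50%, and the DESeq2 Wald test gave 2 members (all genes 2.78%). The log2 fold changes ran from -0.15 to 0.67 with a median of 0.04 (all genes 0.01), and 28 of 40 were above 0 (all genes 51.3%), a split that was 21 to 19 by library totals. Knockout libraries lay wholly above the wild type for 1 member (2.5%; all genes 4.16%) and wholly below for 4 (10.0%; all genes 5.45%). The former was Tpp1, at 91.4, 100 and 96.9 CPM in wild type and 114, 108 and 108 in knockout (0.20 ± 0.07, unadjusted p = 0.0268 by the edgeR test). The latter were Tfeb, Ctsh, Neu1 and Cln3. Neu1, for example, had 37.8, 43.2 and 39.5 CPM in wild type and 35.7, 36.0 and 36.2 in knockout, and Tfeb 11.1, 10.1 and 10.1 against 9.68, 9.64 and 9.48 (-0.11 ± 0.11). Tfe3 and Mitf were at 0.04 ± 0.07 and 0.27 ± 0.22, and Atp6ap1 at 0.17 ± 0.09.

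Ctsc had the widest fold change of all members and, with Ctss, the largest SEs (0.32 and 0.33). It had 55.6, 64.2 and 55.1 CPM in wild-type liver and 98.0, 128 and 51.2 in knockout (0.67 ± 0.32, edgeR unadjusted p = 0.0823), so knockout replicates 1 and 2 were above and replicate 3 below every wild-type library. Ctss followed the same order in knockout, at 30.9, 53.3 and 23.1 CPM against 20.8, 29.1 and 27.5 in wild type. Summed Kupffer cell markers in these libraries were 181, 338 and 140 CPM in knockout and 128, 176 and 155 in wild type, with all 5 markers above 3 counts in every liver library. The 10 general macrophage markers summed to 303, 431 and 241 CPM against 223, 282 and 246. The part of these cells in the Ctsc and Ctss values was not tested. Without knockout replicate 2 the log2 fold change of Ctsc was 0.35, and without knockout replicate 3 it was 0.95 (adjusted p = 0.345). Without knockout replicate 3, 5 of the 40 members had an unadjusted p under 0.05, among 1136 genes in all. The fit with all 6 libraries gave 1 member and 536 genes, so both counts rose.

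**Figure D5:**
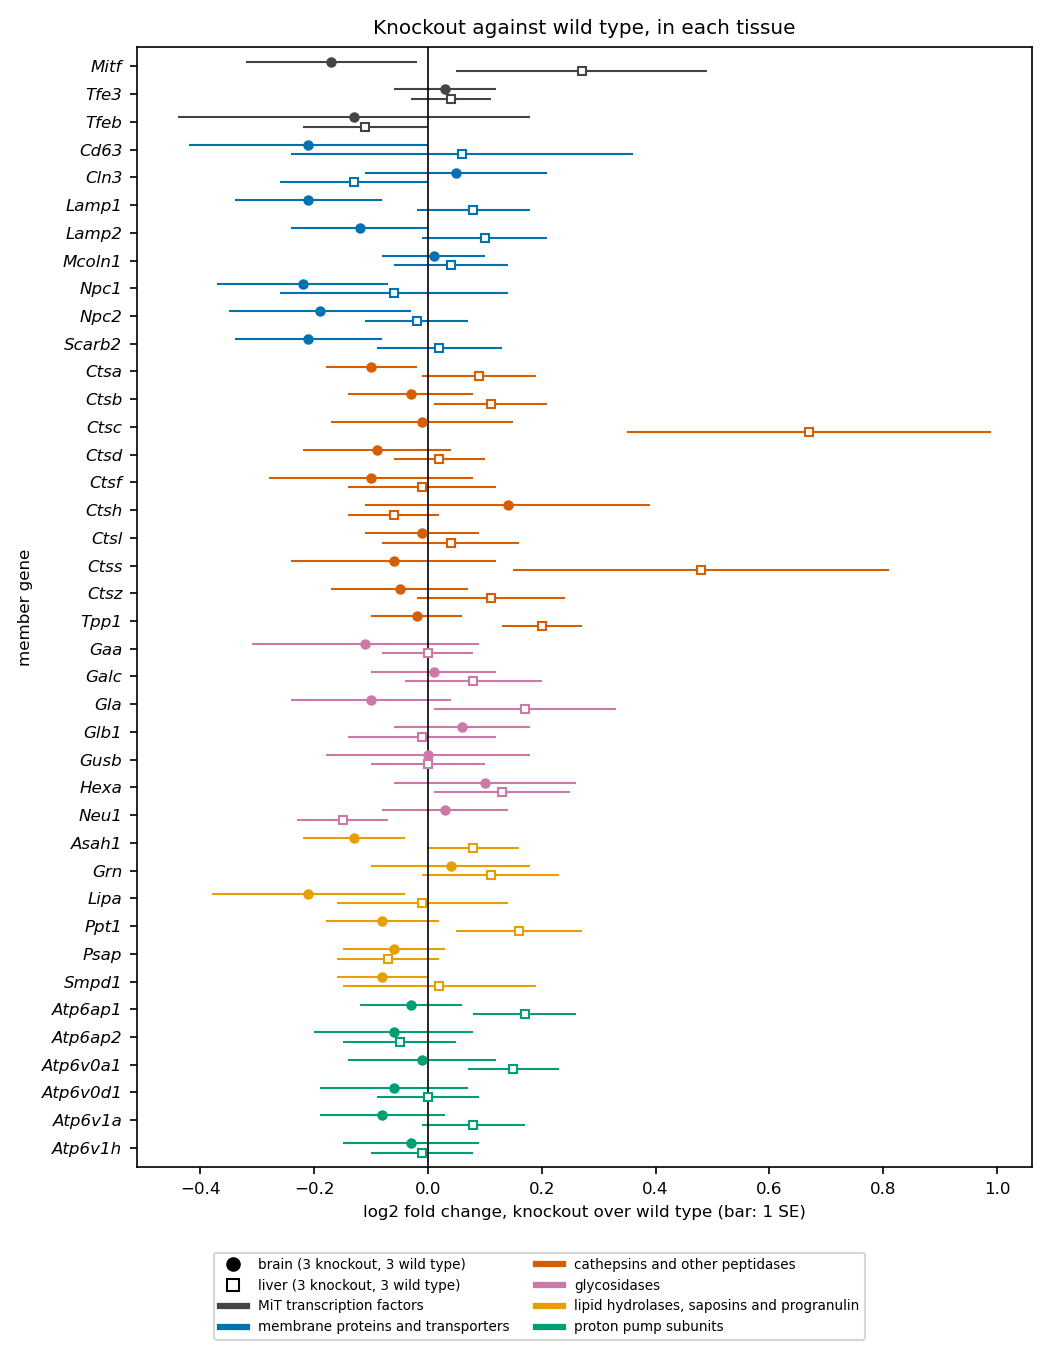
Log2 fold change of knockout over wild type (horizontal axis) for each lysosome gene in brain (filled circles) and liver (open squares), with bars of 1 SE and 3 libraries per genotype; colours give the role. All values lie between -0.22 and 0.67, and Ctsc in liver is furthest from 0 with an SE of 0.32.

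An interaction term, fitted on all 12 libraries, asked whether the genotype effect differed between the tissues. No member was called (edgeR adjusted p = 1 for each member shown), with 0% of the 20141 genes called, and 0 members had an unadjusted p under 0.05 (all genes 2.43%), or 1 with the DESeq2 Wald test (all genes 2.48%). The effect in liver minus that in brain was above 0 for 31 of 40 members (all genes 49.2%), with a median of 0.11 (all genes -0.00). The smallest p-values were those of Tpp1 (0.20 ± 0.11), Ctsc (0.66 ± 0.37) and Asah1 (0.19 ± 0.11), and Tfeb, Tfe3 and Mitf were at 0.00 ± 0.33, -0.01 ± 0.11 and 0.42 ± 0.29. This difference uses the same libraries as the comparisons within each tissue and adds no separate data.

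Of the other lysosome genes, 102 tested in brain and 102 in liver, 0 were called in either tissue by the edgeR test, with median log2 fold changes of -0.01 and 0.05. At an unadjusted p under 0.05 there were 0 in brain (all genes 0.675%), 4 in liver (Cd68, Galns, Laptm5 and Prcp; all genes 3.50%) and 1 of 106 in the interaction (Prcp; all genes 2.43%), which is near the share of all genes in liver and in the interaction. Knockout libraries lay wholly above the wild type for 2 of the 102 in brain (all genes 2.09%) and 6 in liver (4.16%), and wholly below for 5 (2.14%) and 4 (5.45%). Members holding CACGTG had medians of -0.08 in brain and 0.03 in liver, against -0.06 and 0.08 for those with a window and no match. A miss of the threshold does not show equal levels. The median SE of the members was 0.13 in brain and 0.11 in liver, and in simulated data of this size (100 changed genes per fold) 52% of changes of 1 on the log2 scale were recovered in brain and 74% in liver.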

How the data were processed

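The table that the authors deposited holds expected counts of genes in single libraries, neither normalized nor pooled, some of them not whole. Per the labels' protocols, TRIzol RNA was treated with DNase, depleted of ribosomal RNA and made into stranded total RNA libraries read single-end. The submitters' processing notes name cutadapt, STAR and mm10; how reads were counted, and whether by strand, is not given in the sources used here, so the reads of the 12 members whose exons overlap a gene on the other strand, and the 3 on the same strand, may be divided. All 55450 identifiers matched GENCODE M21 (GRCm38).

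Counts were rounded. Library totals were 14844971 to 18567381 in brain and 23247449 to 27155480 in liver. Tests were run in edgeR 4.0.16 under R 4.3.3 (quasi-likelihood, robust, TMM, filterByExpr with a minimum count of 10 and total of 15), adjusted over all genes tested, with a threshold of 0.05, and fitted on the 6 libraries compared or, for the interaction and the CPM, all 12. The fits were tested on simulated counts with 200 changed genes, where 5.84% to 11.5% of the calls were false, more than the nominal 5% (8.24% and 5.84% for the tissue comparisons). DESeq2 1.42.0 was an alternative. Alternatives also covered scaling, filters, robust estimation, one joint fit, the replicate block and each replicate left out.

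Samples were grouped by the titles and genotype labels. Nothing states that replicates of a group are separate animals, so p-values measure the spread between these libraries. Replicate numbers come from the titles. Deviations of same-numbered wild-type and knockout libraries from their group means correlated at 0.29, 0.32 and 0.37 in liver, which was taken as pairing, over 13925 genes on log2 (CPM + 0.5). The main tests did not use pairing in either tissue, and the replicate block was the alternative that did. The members, the wider lists and the marker lists were chosen with earlier results of these data known. Fold changes were printed for members at least 2-fold different in both genotypes or missing a call in either, and, between genotypes, for the 3 smallest p-values and Tfeb, Tfe3 and Mitf; other genes were the 3 largest per list and direction, of which 1 is not reported here. Members singled out beyond that (Ctss, Neu1, Glb1 beside its sum, members whose direction or call changed with a setting, Rraga, Rragc, the genes at an unadjusted p and the libraries behind them) were chosen after their values were seen.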

Additional observations from a re-analysis of the deposited data

How the results depend on the processing

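No alternative called a member in a genotype comparison or in the interaction. The count of all genes called in liver, 0 in the main setting, was 10 with the DESeq2 Wald test, 4 without a low-count filter, 2 with the replicate block and 0 to 1 with a replicate left out; for the interaction it was 1 with the DESeq2 Wald test and 2 with the replicate block. In brain same-numbered libraries correlated at 0.71 for replicate 1 and 0.69 for replicate 2, but at -0.03 for replicate 3. The numbers therefore paired only part of the brain libraries. The replicate block left the count of calls in brain at 0 and moved the genes at an unadjusted p under 0.05 from 122 to 406. Between tissues same-numbered libraries correlated at 0.03 to 0.05, and the block changed calls, on the adjusted p, for Tfeb (0.0445), Ctss (0.0208), Gla (0.0752) and Smpd1 (0.0668) in wild type and Glb1 (0.0674) in knockout, and for no other member.

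Between genotypes, library totals in place of TMM changed none of the 6 members followed in each comparison. Of all 40, however, the members above 0 went from 10 to 7 in brain, from 28 to 21 in liver and from 31 to 29 in the interaction. Between tissues, library totals were the setting that changed the most members. In wild type, 3999 genes in all were then called higher in liver, 20 members higher in brain (15 of them at least 2-fold) and 13 in liver; in knockout 3887 genes in liver, 18 members in brain (14 at least 2-fold) and 14 in liver (10 at least 2-fold). Turned in wild type were Tfeb (0.24), Tfe3 (0.27), Mcoln1 (0.74), Ctss (0.46), Glb1 (0.37), Neu1 (0.01) and Asah1 (0.33), and in knockout Tfeb (0.24), Tfe3 (0.29), Mitf (0.87), Mcoln1 (0.73), Glb1 (0.47), Neu1 (0.22), Asah1 (0.15) and Cln3 (0.09). By construction this setting shifts all genes together. Values near 0 also changed sign. Knockout Mitf between tissues was 0.02 without a filter, 0.01 in the joint fit and 0.01 with the replicate block, and -0.20 to 0.09 with a replicate left out, when knockout Smpd1 was -0.03 to 0.28. In brain, Tfeb was -0.41 to 0.04 and Tfe3 -0.01 to 0.06 with a replicate left out; Tfe3 in the interaction was -0.03 to 0.07, and 0.01 with DESeq2 size factors and with its Wald test. The cause was not tested.

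In simulated data with 3 libraries per group, 52% of changes of 1 on the log2 scale between genotypes were recovered in brain, 74% in liver and 14% for the interaction; smaller changes were not simulated. Members were well counted, with at least 40.84 counts in each library.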
